A study of Homo sapiens with 9 samples.

Results

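The genes described here encode the proteins that sense unfolded protein in the endoplasmic reticulum (ER) or related stresses, the transcription factors that pass the signal on, and the proteases that release some of those factors. They are 10 genes chosen by name, ERN1, EIF2AK3, ATF6, ATF6B, CREB3L2, XBP1, EIF2AK1, EIF2AK4, MBTPS1 and MBTPS2, of 20263 genes in the count table, and all 10 were found and passed the filter on low counts. Messenger RNA was sequenced in HaCaT, a human keratinocyte line that grows without limit in culture, to ask how glabridin, a licorice isoflavan, promotes breakdown of melanosomes. There were 3 groups of 3 libraries. Glabridin libraries came from melanosome-laden cells given glabridin, melanosomes being pigment organelles that keratinocytes receive from melanocytes. Melanosome libraries came from cells laden with melanosomes alone, and Blank libraries from cells given neither and labelled WT. No library came from cells given glabridin without melanosomes, so glabridin was seen only in melanosome-laden cells. Glabridin and Blank libraries therefore differ in both melanosomes and glabridin. All libraries came from the same single line, and the labels name neither the dose of glabridin, nor the hours of exposure, nor the cells that supplied the melanosomes.

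In a resting cell the ER chaperone BiP (HSPA5) keeps the sensors IRE1 (ERN1), PERK (EIF2AK3) and ATF6 quiet, and unfolded protein in the ER lumen switches them on. IRE1 cuts XBP1 mRNA so that a strong transcription factor is made, PERK phosphorylates the translation factor eIF2 and thereby favours synthesis of ATF4, and ATF6 moves to the Golgi, where the proteases MBTPS1 and MBTPS2 free its active part. The kinases EIF2AK1 and EIF2AK4 phosphorylate eIF2 as well, in response to heme shortage or mitochondrial stress and to amino acid shortage. Most of this control acts on the proteins or on splicing, so the abundance of these mRNAs measures the supply of each component and not its activity. In skin, splicing of XBP1 is known to accompany the differentiation of keratinocytes.

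The event at XBP1 is shown because it is the step on which the pathway turns and because gene-level counts cannot see it. The stretch lies in exon 4 of XBP1 at chr22:28796122-28796147 on the minus strand of GRCh38, and the sequences were read from GENCODE release 29 transcripts. Capitals mark the 26 bases that XBP1-201 has and XBP1-202 lacks, as the annotation places them, with 30 bases of the transcript on either side. The letters gcagca both precede the capitals and end them, so a shifted stretch of the same length would leave the same spliced sequence. The capitals therefore need not mark the exact sites that IRE1 cuts.
XBP1 unspliced (XBP1-201): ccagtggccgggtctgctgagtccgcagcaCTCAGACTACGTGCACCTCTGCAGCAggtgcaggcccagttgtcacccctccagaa
XBP1 spliced (XBP1-202): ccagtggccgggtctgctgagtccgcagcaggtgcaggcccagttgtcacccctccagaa
Loss of the stretch shifts the reading frame, and the annotated coding length is 1128 bases in XBP1-202 against 783 bases in XBP1-201. Every XBP1 level given here sums both forms, and the share of the spliced form was not measured.

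Deposited counts summed to between 42582054 and 46591852 in Glabridin libraries, between 39653425 and 46690787 in Melanosome libraries and between 41793696 and 45839573 in Blank libraries. Glabridin replicate 2 stood apart from its group. Summed levels of 14 melanocyte markers were 2126, 3455 and 1735 CPM (counts scaled to library size) in Glabridin replicates 1, 2 and 3, between 3142 and 3276 CPM in Melanosome libraries, and between 8.30 and 9.42 CPM in Blank libraries. All 14 were called higher in Melanosome than in Blank libraries, and TYR, TRPM1, OCA2, S100B and KIT had no count in Blank libraries. PMEL, the melanosome matrix protein and the check of the melanosome label, averaged 1602 ± 676 CPM in Glabridin libraries, 2109 ± 65.8 CPM in Melanosome libraries and 3.20 ± 0.315 CPM in Blank libraries (SD, n = 3 each). Keratinocyte markers, 12 in number, summed to between 9023 and 11599 CPM in Glabridin libraries, between 11150 and 12127 CPM in Melanosome libraries and between 13575 and 13699 CPM in Blank libraries, so keratinocyte transcripts were abundant throughout. Single markers diverged. Of the 12, 2 were called higher and 7 lower in Melanosome against Blank libraries, where 62.5% of all genes tested were called. In Glabridin against Melanosome libraries 4 were higher and 3 lower, where 43.9% of all genes tested were called. The 6 fibroblast markers summed to at most 45.5 CPM in any library. Melanocyte transcripts therefore set both melanosome-laden groups apart from Blank libraries. Between Glabridin and Melanosome libraries their summed levels overlapped, with 5 of the 14 markers called lower and none higher. The part of melanocyte transcripts in the results below was not tested. In bulk RNA, fewer cells of a type and less RNA per cell cannot be told apart.

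With glabridin added to melanosome-laden cells, 8 of the 10 genes rose, none was called lower, and ATF6B and MBTPS2 were not called. XBP1 and ERN1 rose over 3-fold, EIF2AK3 2.79-fold and CREB3L2 1.92-fold, whereas EIF2AK1, ATF6, MBTPS1 and EIF2AK4 rose by between 1.13-fold and 1.33-fold. A gene was called at a Benjamini-Hochberg adjusted p under 0.05 from edgeR's quasi-likelihood test over 13912 genes. Calls were widespread: 43.9% of all genes tested were called in Glabridin against Melanosome libraries, 23.7% higher and 20.2% lower. The median log2 fold change of the 10 genes was 0.39, against 0.01 over all genes tested. Libraries of the groups did not overlap for 8 of the 10 genes, against 50.2% of all genes tested. Without Glabridin replicate 2, 7 of the 10 genes were called higher, EIF2AK4 being lost. Without scaling of library sizes, 5 were called higher and ATF6B was called lower. The labels do not call the replicates separate cultures, and each p-value is therefore set against library-to-library spread alone, possibly of technical origin.

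**Figure D1:**
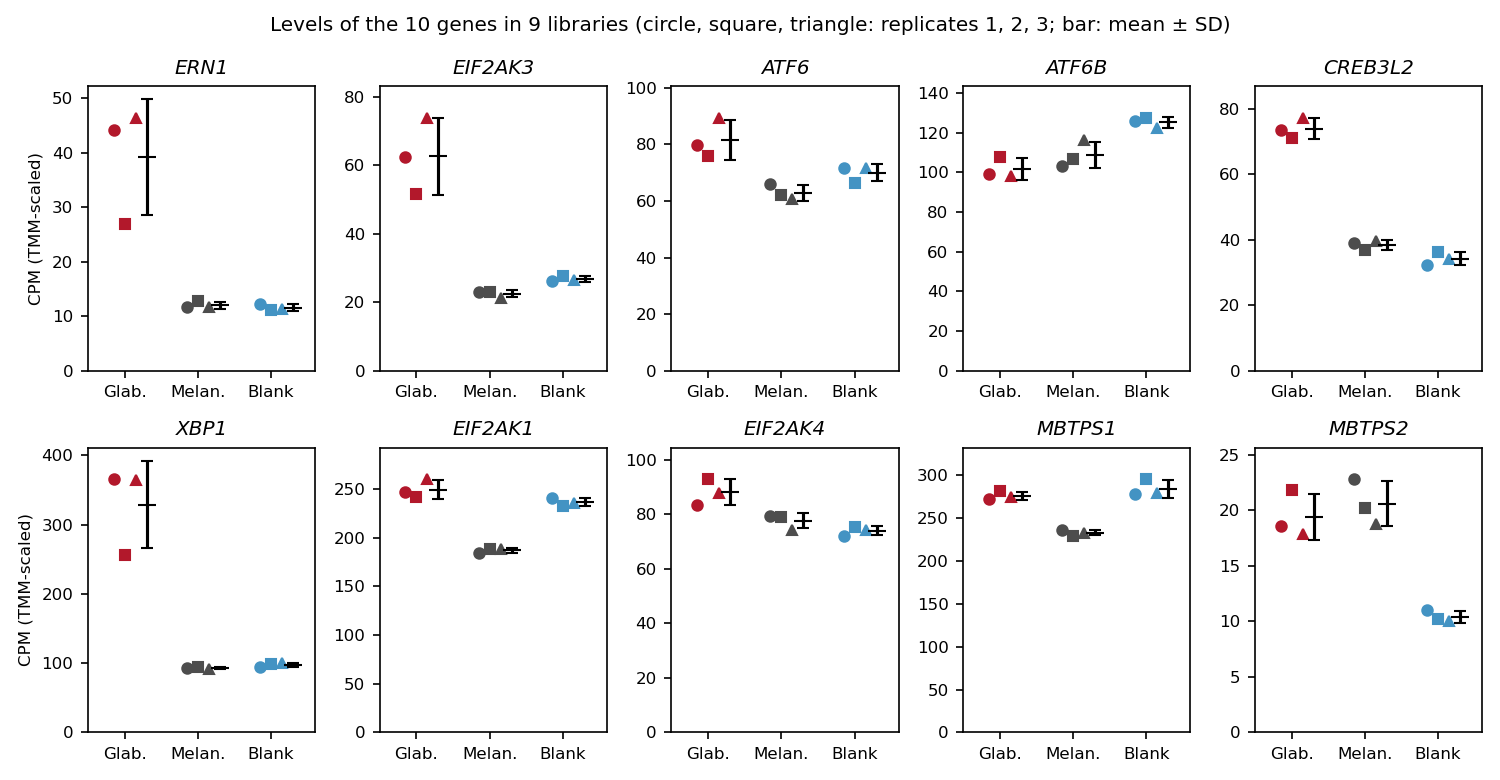
CPM on TMM-scaled library sizes (linear axis from 0) for each of the 10 genes in 3 Glabridin, 3 Melanosome and 3 Blank libraries; symbols are replicates 1, 2 and 3 and the black bar is the mean ± SD. XBP1 and ERN1 stood highest in Glabridin libraries, with the replicate 2 square below the other Glabridin points, and MBTPS2 was lowest in Blank libraries.

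The sensors of the ER lumen moved by very different amounts. Positions of genes are those of GENCODE release 29 on GRCh38. ERN1 (chr17:64039142-64130819, minus strand), which encodes the kinase and RNase IRE1, was at 44.2, 26.9 and 46.4 CPM in Glabridin replicates 1 to 3, at 11.7, 12.8 and 11.6 CPM in Melanosome libraries, and at 12.3, 11.2 and 11.3 CPM in Blank libraries. All Glabridin libraries lay above all others, replicate 2 being the lowest of them, while Melanosome and Blank libraries overlapped. ERN1 thus had a log2 fold change in Glabridin over Melanosome libraries of 1.70 ± 0.18 (SE; 95% interval 1.31 to 2.09; edgeR adjusted p = 3.12e-05), a 3.25-fold rise.

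EIF2AK3 (chr2:88556741-88627576, minus strand), which encodes the eIF2 kinase PERK, was at 62.4, 51.5 and 73.8 CPM in Glabridin libraries, at 23.0, 23.1 and 21.3 CPM in Melanosome libraries, and at 26.3, 27.7 and 26.5 CPM in Blank libraries. The lowest Glabridin library, again replicate 2, stood well above the highest Melanosome and Blank libraries. Its log2 fold change in Glabridin over Melanosome libraries was 1.48 ± 0.12 (SE; 95% interval 1.22 to 1.74; edgeR adjusted p = 4.82e-06). Melanosome libraries lay below Blank libraries without overlap, but the difference was not called (log2 fold change -0.26 ± 0.12, edgeR adjusted p = 0.0742). It was called with only the 2 groups compared in the fit (-0.18, edgeR adjusted p = 0.0202).

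ATF6 (chr1:161766294-161964070, plus strand), a membrane-bound transcription factor and sensor in its own right, was at 79.8, 75.8 and 89.5 CPM in Glabridin libraries, at 66.1, 62.2 and 60.7 CPM in Melanosome libraries, and at 71.7, 66.5 and 71.7 CPM in Blank libraries. Glabridin libraries were the highest, without overlap with either group. The rise over Melanosome libraries was 1.30-fold (log2 fold change 0.37 ± 0.07, SE; 95% interval 0.21 to 0.54; edgeR adjusted p = 0.0023). It was not called without scaling of library sizes, where the log2 fold change was 0.20 (adjusted p = 0.0826), nor on the TPM scale, which also divides by transcript length.

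ATF6B (chr6:32115264-32128253, minus strand), the weaker relative of ATF6, did not follow it. ATF6B was at 99.1, 108 and 98.3 CPM in Glabridin libraries, at 103, 107 and 116 CPM in Melanosome libraries, and at 126, 128 and 122 CPM in Blank libraries. Glabridin and Melanosome libraries overlapped, and Blank libraries were above both. The log2 fold change in Glabridin over Melanosome libraries was -0.10 ± 0.06 (SE; 95% interval -0.24 to 0.05; edgeR adjusted p = 0.254). Without scaling of library sizes ATF6B was called lower in Glabridin than in Melanosome libraries, at a log2 fold change of -0.27 (edgeR adjusted p = 0.00217). The ratio of ATF6 to ATF6B in TPM, which no scaling of a library can move, was 0.285, 0.249 and 0.322 in Glabridin libraries, 0.227, 0.207 and 0.185 in Melanosome libraries, and 0.202, 0.185 and 0.208 in Blank libraries. Every Glabridin library had a higher ratio than every other library, and the other groups overlapped. ATF6B shares 71 exonic bases with TNXB on the same strand, and TNXB was at no more than 3.98 CPM in any library.

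CREB3L2 (chr7:137874979-138002067, minus strand) encodes another factor held in the ER membrane and freed by the same proteases, known from mice for inducing secretory pathway genes in cartilage. CREB3L2 was at 73.6, 71.1 and 77.3 CPM in Glabridin libraries, at 38.9, 36.8 and 39.6 CPM in Melanosome libraries, and at 32.4, 36.3 and 34.2 CPM in Blank libraries. The spread among Glabridin libraries was small beside the gap to the other groups. Its log2 fold change over Melanosome libraries was 0.94 ± 0.07 (SE; 95% interval 0.79 to 1.10; edgeR adjusted p = 3.03e-06).

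XBP1 (chr22:28794555-28800597, minus strand) was the most changed of the 10 genes in Glabridin over Melanosome libraries. It was at 366, 256 and 364 CPM in Glabridin libraries, at 92.7, 94.1 and 92.0 CPM in Melanosome libraries, and at 94.7, 98.7 and 100.1 CPM in Blank libraries. Replicate 2 was again the lowest Glabridin library but far above the remaining groups, which lay within a few CPM of each other. XBP1 averaged 328 ± 62.6 CPM in Glabridin libraries and 92.9 ± 1.09 CPM in Melanosome libraries (SD, n = 3 each), a 3.54-fold rise (log2 fold change 1.82 ± 0.12, SE; 95% interval 1.56 to 2.08; edgeR adjusted p = 1.19e-06). Relative to ATF6B in the same library, XBP1 in TPM was 4.81, 3.09 and 4.82 times as abundant in Glabridin libraries, 1.17, 1.15 and 1.03 times in Melanosome libraries, and 0.981, 1.01 and 1.07 times in Blank libraries. Glabridin libraries again stood clear of the rest, and Melanosome and Blank libraries overlapped.

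Upstream sequences of XBP1 and CREB3L2 are shown because only they, of the promoters searched, held a full element among those looked for. They are RefSeq promoter sequences on GRCh38.p14, both on the minus strand and written 5′ to 3′ of the gene, with the motif in capitals. That of XBP1 covers chr22:28800598-28800819 and leaves out bases inside annotated exons, and that of CREB3L2 covers chr7:138002087-138002336.
XBP1 upstream: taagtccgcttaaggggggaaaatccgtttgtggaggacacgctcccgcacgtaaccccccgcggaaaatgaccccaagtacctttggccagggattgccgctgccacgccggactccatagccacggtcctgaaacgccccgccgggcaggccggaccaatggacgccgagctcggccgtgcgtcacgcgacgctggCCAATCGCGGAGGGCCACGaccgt
CREB3L2 upstream: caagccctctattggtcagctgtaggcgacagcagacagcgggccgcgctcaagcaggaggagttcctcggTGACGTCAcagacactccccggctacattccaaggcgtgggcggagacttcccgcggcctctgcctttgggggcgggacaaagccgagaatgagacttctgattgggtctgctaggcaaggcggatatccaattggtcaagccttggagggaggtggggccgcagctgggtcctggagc
The capitals in XBP1 match the ER stress response element, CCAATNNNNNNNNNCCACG, at -52 to -34 from the RefSeq start. On either strand, 26 of 35116 upstream windows of 250 bases held that element, or 0.0740%. The capitals in CREB3L2 match the cyclic AMP response element, TGACGTCA, at -179 to -172, which 578 windows, or 1.65%, held. Each of these elements was in 1 of the 11 promoters of 9 of the genes that matched the table. The windows searched for ERN1 and EIF2AK3 held neither. That of ERN1 lay inside the gene as annotated here, so bases upstream of the annotated gene were not searched. That of EIF2AK3 lay partly inside its gene. The variant element of ATTGG and CCACG with 1 base between them (0.0513% of windows), TGACGTGG (0.612%) and TGATGNAA (3.14%) were in none of the 11. The parts of the ER stress response element alone were common: CCAAT in 32.0% and CCACG in 33.5% of windows, and each in 5 of the 11, including the XBP1 match that holds both. A match is a description of letters and not evidence of binding.

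The other eIF2 kinases respond to stresses outside the ER lumen. EIF2AK1 (chr7:6022244-6059230, minus strand), the heme-regulated kinase, was at 246, 241 and 260.0 CPM in Glabridin libraries, at 184, 188 and 188 CPM in Melanosome libraries, and at 241, 233 and 235 CPM in Blank libraries. Glabridin libraries lay just above Blank libraries, and Melanosome libraries were well below both. The log2 fold change in Glabridin over Melanosome libraries was 0.41 ± 0.05 (SE; 95% interval 0.30 to 0.53; edgeR adjusted p = 1.01e-04). EIF2AK1 shares 532 exonic bases with AIMP2 on the opposite strand, and the use of strand in counting is not stated. AIMP2 was at 12.4 to 19.9 CPM in Glabridin libraries, 16.9 to 18.8 CPM in Melanosome libraries and 17.7 to 17.8 CPM in Blank libraries.

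EIF2AK4 (chr15:39934146-40035591, plus strand) encodes GCN2, the kinase that binds uncharged transfer RNA. It was at 83.4, 93.0 and 88.0 CPM in Glabridin libraries, at 79.5, 79.2 and 74.5 CPM in Melanosome libraries, and at 72.2, 75.5 and 74.3 CPM in Blank libraries. Glabridin libraries were the highest, by a few CPM only. The 1.13-fold rise over Melanosome libraries was the least secure of the 8 (log2 fold change 0.18 ± 0.06, SE; 95% interval 0.04 to 0.32; edgeR adjusted p = 0.0359). It was not called under 14 of 15 other settings, and was -0.0052 by limma on log2(TPM + 1). These settings included leaving out Glabridin replicate 1 (0.13, adjusted p = 0.193) or 2 (0.14, adjusted p = 0.0584), or Melanosome replicate 1 (0.20, adjusted p = 0.0583), 2 (0.19, adjusted p = 0.0765) or 3 (0.15, adjusted p = 0.13).

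The proteases differed from each other. MBTPS1 (chr16:84053761-84116906, minus strand), the site-1 protease, which makes the first cut in ATF6, was at 272, 281 and 275 CPM in Glabridin libraries, at 236, 229 and 233 CPM in Melanosome libraries, and at 277, 295 and 278 CPM in Blank libraries. Melanosome libraries were the lowest without overlap, and Glabridin and Blank libraries overlapped. The log2 fold change in Glabridin over Melanosome libraries was 0.25 ± 0.05 (SE; 95% interval 0.14 to 0.36; edgeR adjusted p = 0.00236). It was not called under 5 of 15 other settings: without Glabridin replicate 1 (0.17, adjusted p = 0.0598), without scaling of library sizes (0.07, adjusted p = 0.256), with upper-quartile factors (0.13, adjusted p = 0.0632), and by limma on TPM at either pseudocount (0.06, adjusted p up to 0.369).

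MBTPS2 (chrX:21839636-21885424, plus strand), the site-2 protease, which makes the second cut within the membrane, was at 18.6, 21.8 and 17.9 CPM in Glabridin libraries, at 22.8, 20.2 and 18.8 CPM in Melanosome libraries, and at 11.0, 10.2 and 9.99 CPM in Blank libraries. Blank libraries were clearly the lowest, and the melanosome-laden groups overlapped. The log2 fold change in Glabridin over Melanosome libraries was -0.09 ± 0.11 (SE; 95% interval -0.32 to 0.15; edgeR adjusted p = 0.544). The ratio of MBTPS1 to MBTPS2 in TPM was 24.5, 21.6 and 25.8 in Glabridin libraries, 17.3, 19.0 and 20.7 in Melanosome libraries, and 42.2, 48.3 and 46.9 in Blank libraries. None of the groups overlapped in this ratio, which was lowest in Melanosome libraries. MBTPS2 shares 1093 exonic bases with YY2 on the same strand, but YY2 had only 5 to 38 counts in any library.

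**Figure D2:**
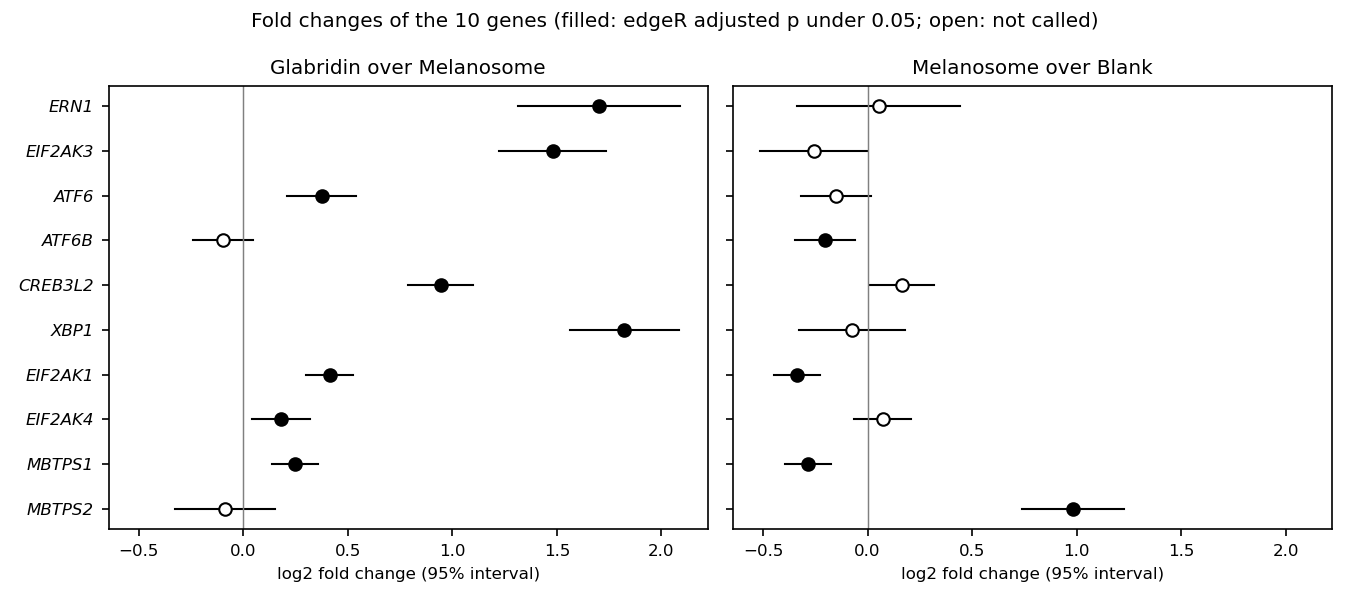
Log2 fold changes of the 10 genes in Glabridin over Melanosome libraries (left) and Melanosome over Blank libraries (right), with 95% intervals; filled points had an edgeR adjusted p under 0.05. XBP1, ERN1, EIF2AK3 and CREB3L2 lie farthest right on the left side, between 0.94 and 1.82, and MBTPS2 at 0.98 is the only point above 0.20 on the right side.

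In Melanosome against Blank libraries 4 of the 10 genes were called. MBTPS2 was higher, and EIF2AK1, MBTPS1 and ATF6B were lower. Of these, only MBTPS2 was also called by limma on the TPM scale. The calls stand beside a broad difference: 62.5% of all genes tested were called in Melanosome against Blank libraries, 29.5% higher and 33.0% lower. The share of the 10 genes that was called was thus below that of all genes. Libraries did not overlap for 8 of the 10 genes, against 76.1% of all genes tested. The median size of the log2 fold change, regardless of sign, was 0.18 for the 10 genes and 0.42 for all genes.

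MBTPS2 averaged 20.6 ± 2.05 CPM in Melanosome libraries and 10.4 ± 0.541 CPM in Blank libraries (SD, n = 3 each). That is a 1.98-fold rise (log2 fold change 0.98 ± 0.11, SE; 95% interval 0.74 to 1.23; edgeR adjusted p = 2.6e-05), which was called under all 15 other settings. Melanocyte markers rose in the same comparison, and whether MBTPS2 transcripts came with the melanosomes was not tested. EIF2AK1 averaged 187 ± 2.44 CPM in Melanosome libraries and 236 ± 3.97 CPM in Blank libraries (log2 fold change -0.34 ± 0.05, edgeR adjusted p = 2.22e-04). MBTPS1 averaged 233 ± 3.10 CPM in Melanosome libraries and 284 ± 9.99 CPM in Blank libraries (log2 fold change -0.29 ± 0.05, edgeR adjusted p = 5.81e-04). Both were below every Blank library, though neither was called on the TPM scale, where the log2 fold changes were -0.16 (limma adjusted p = 0.0523) and -0.11 (limma adjusted p = 0.109). ATF6B averaged 109 ± 6.70 CPM in Melanosome libraries and 125 ± 2.67 CPM in Blank libraries (log2 fold change -0.20 ± 0.06, edgeR adjusted p = 0.0178). ATF6B was not called under 10 of 15 other settings, including without Melanosome replicate 1 (-0.17, adjusted p = 0.0679) or 2 (-0.19, adjusted p = 0.0688), or Blank replicate 1 (-0.20, adjusted p = 0.0551) or 2 (-0.19, adjusted p = 0.0623).

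ERN1 and XBP1, so much higher with glabridin, were not called in Melanosome against Blank libraries. The log2 fold change was 0.05 for ERN1 (95% interval -0.34 to 0.44; edgeR adjusted p = 0.804) and -0.07 for XBP1 (95% interval -0.33 to 0.18; edgeR adjusted p = 0.59), and that of XBP1 was 0.09 without scaling of library sizes. All 9 libraries shared 1 fit, so these intervals also carry the spread of Glabridin libraries, whose replicates differed most. With only the 2 groups compared in the fit, 10162 genes were called in place of 8691. ERN1 and XBP1 were called under none of the 15 other settings (adjusted p at least 0.140 and 0.546). CREB3L2 averaged 38.5 ± 1.47 CPM in Melanosome libraries and 34.3 ± 1.91 CPM in Blank libraries (log2 fold change 0.16 ± 0.07, edgeR adjusted p = 0.0611). It was called higher under 7 other settings. ATF6 (-0.15, but 0.02 without scaling of library sizes) and EIF2AK4 (0.07) were not called either. EIF2AK4 was called higher under 4 other settings, at up to 0.25.

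Set against untreated cells, Glabridin libraries were higher for 7 of the 10 genes and lower for ATF6B, where 70.3% of all genes tested were called, 37.6% higher and 32.7% lower. Libraries did not overlap for 9 of the 10 genes, against 73.2% of all genes tested. These groups differ in both melanosomes and glabridin. This comparison shares the Glabridin libraries with the first comparison and the Blank libraries with the second, and the first and second share the Melanosome libraries, so the 3 are not independent of each other. ERN1 was 3.37-fold higher in Glabridin than in Blank libraries, XBP1 3.36-fold, EIF2AK3 2.33-fold, CREB3L2 2.16-fold and MBTPS2 1.86-fold (edgeR adjusted p at most 3.13e-05). EIF2AK1 and MBTPS1, lower in Melanosome than in Blank libraries, were not called in Glabridin against Blank libraries. Their log2 fold changes there were 0.08 (95% interval -0.03 to 0.19) and -0.04 (95% interval -0.15 to 0.07). ATF6 was 0.22 higher on the log2 scale (edgeR adjusted p = 0.0201). It was not called without Glabridin replicate 3 (0.15, adjusted p = 0.0527) or Blank replicate 2 (0.19, adjusted p = 0.0836).

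Levels were compared between genes in TPM. In Glabridin libraries XBP1 was the most abundant of the 10 at 421 ± 97.8 TPM, followed by MBTPS1 at 153 ± 6.92, EIF2AK1 at 137 ± 12.7 and ATF6B at 99.4 ± 2.34 TPM (SD, n = 3 each). In Melanosome libraries MBTPS1 led at 147 ± 5.96 TPM, followed by XBP1 at 134 ± 3.94, ATF6B at 121 ± 5.38 and EIF2AK1 at 117 ± 1.83 TPM. In Blank libraries the order was MBTPS1 at 158 ± 6.50, EIF2AK1 at 130.2 ± 1.12, XBP1 at 125 ± 4.59 and ATF6B at 123 ± 2.73 TPM. Neighbours whose libraries overlapped were MBTPS1 and EIF2AK1 in Glabridin libraries, ATF6B and EIF2AK1 in Melanosome libraries, and XBP1 and ATF6B in Blank libraries.

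The kinase sensors EIF2AK3 and ERN1 were below these 4 in every group. EIF2AK3 was at 33.1 ± 7.66 TPM in Glabridin libraries, 13.4 ± 0.853 TPM in Melanosome libraries and 14.1 ± 0.512 TPM in Blank libraries. ERN1 was at 10.5 ± 3.29 TPM in Glabridin libraries, 3.63 ± 0.172 TPM in Melanosome libraries and 3.10 ± 0.133 TPM in Blank libraries. ERN1 was thus last of the 10 in Melanosome and Blank libraries, and in Glabridin libraries it overlapped with MBTPS2, which was last at 6.41 ± 0.374 TPM. MBTPS2 was at 7.77 ± 0.990 TPM in Melanosome libraries and 3.45 ± 0.153 TPM in Blank libraries, next above ERN1 in both and without overlap. EIF2AK4, ATF6 and CREB3L2 filled the middle, between 22.3 and 30.5 TPM in Glabridin libraries, between 13.1 and 30.6 TPM in Melanosome libraries, and between 10.3 and 25.7 TPM in Blank libraries. Overlap between neighbours was seen here for EIF2AK3 with EIF2AK4 and EIF2AK4 with ATF6 in Glabridin libraries, for EIF2AK3 with CREB3L2 in Melanosome libraries, and for EIF2AK4 with ATF6 in Blank libraries.

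ERN1, EIF2AK3 and XBP1 varied most among Glabridin libraries. The highest of the 3 was 1.72 times the lowest for ERN1, 1.43 times for EIF2AK3 and 1.43 times for XBP1, whereas in Melanosome libraries it was at most 1.22 times for any of the 10 genes. This was not so for every gene, since the ratio for ATF6B was 1.10 in Glabridin libraries and 1.12 in Melanosome libraries, and for CREB3L2 and MBTPS1 it was largest in Blank libraries. Glabridin replicate 2 was the lowest Glabridin library for 6 genes (ERN1, EIF2AK3, ATF6, CREB3L2, XBP1 and EIF2AK1) and the highest for the other 4. The same library had the highest summed level of melanocyte markers in its group, and whether these go together was not tested. HSPA5, the chaperone that holds the sensors in check, was at 6334, 4814 and 6238 CPM in Glabridin libraries, at 488, 508 and 501 CPM in Melanosome libraries, and at 661, 669 and 666 CPM in Blank libraries. Its lowest Glabridin library was replicate 2 as well, while Melanosome libraries lay below Blank libraries.

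Genes downstream of each sensor were read from lists chosen for their known roles. The lists were drawn up with earlier results of these data known, so their counts are not independent support. Over all genes tested, 23.7% were called higher and 20.2% lower in Glabridin against Melanosome libraries. Of 14 genes of the XBP1 arm, which covers protein entry into the ER, transport out of it and degradation, 13 rose and none fell in Glabridin over Melanosome libraries, with a median log2 fold change of 1.27. SEC61A1, the channel of the translocon, averaged 926 ± 85.2 CPM in Glabridin libraries and 354 ± 12.9 CPM in Melanosome libraries (SD, n = 3 each; log2 fold change 1.39, edgeR adjusted p = 2.36e-07). SSR3, a translocon-associated protein, averaged 306 ± 29.7 CPM in Glabridin libraries and 130.0 ± 2.59 CPM in Melanosome libraries (log2 fold change 1.23, edgeR adjusted p = 5.54e-07). The whole set of 10 ATF6 arm genes, mainly ER chaperones, rose at a median log2 fold change of 1.78. HSPA5 rose 11.6-fold (log2 fold change 3.54 ± 0.10, SE; edgeR adjusted p = 1.12e-08), and HERPUD1, which helps ER-associated degradation, averaged 590 ± 81.7 CPM in Glabridin libraries and 67.8 ± 2.62 CPM in Melanosome libraries (log2 fold change 3.12, edgeR adjusted p = 1.24e-08).

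All 11 genes of the PERK and ATF4 arm rose too, at a median of 2.02. ATF4, the transcription factor whose synthesis eIF2 phosphorylation favours, averaged 1341 ± 53.9 CPM in Glabridin libraries and 331 ± 10.3 CPM in Melanosome libraries (log2 fold change 2.02 ± 0.05, SE; edgeR adjusted p = 7.03e-09). ATF3, a stress-induced factor of the same family, averaged 143 ± 3.29 CPM in Glabridin libraries and 18.2 ± 1.36 CPM in Melanosome libraries (edgeR adjusted p = 6.81e-09). ATF4 also answers to the other eIF2 kinases, so its list is not specific to PERK, and the XBP1 and ATF6 lists are known to share control as well.

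**Figure D3:**
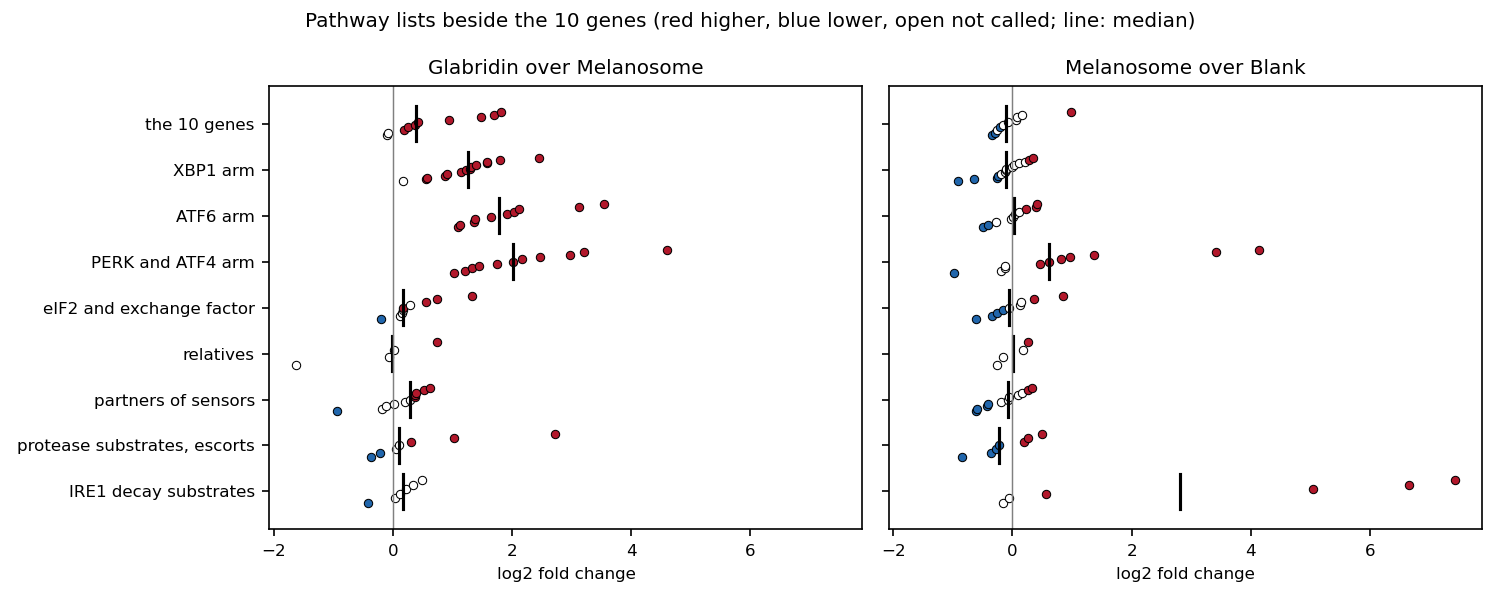
Log2 fold changes of single genes (points) in the 10 genes and 8 pathway lists, in Glabridin over Melanosome libraries (left) and Melanosome over Blank libraries (right); colour marks genes called higher or lower and the line is the list's median. The XBP1, ATF6 and PERK and ATF4 lists have medians of 1.27, 1.78 and 2.02 on the left side and of -0.10, 0.03 and 0.61 on the right side.

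Other lists were mixed in Glabridin over Melanosome libraries, where 43.9% of all genes tested were called, 23.7% higher and 20.2% lower. Of 9 genes for eIF2, its exchange factor eIF2B and a phosphatase subunit, 4 rose and 1 fell, with a median log2 fold change of 0.18. PPP1R15B, which directs phosphatase to eIF2, averaged 119 ± 28.1 CPM in Glabridin libraries and 47.6 ± 1.34 CPM in Melanosome libraries (log2 fold change 1.33, edgeR adjusted p = 2.92e-05), and EIF2B2 averaged 58.7 ± 4.51 CPM in Glabridin libraries and 40.2 ± 1.75 CPM in Melanosome libraries (log2 fold change 0.55, edgeR adjusted p = 3.31e-04). Without Glabridin replicate 2, 6 rose and 1 fell, while calls over all genes also increased, from 6111 to 7332. Among the 4 tested relatives of the 10 genes, of 6 in all, CREB3 alone was called (0.74 ± 0.07, SE; edgeR adjusted p = 1.47e-05), while CREB3L1 and CREB3L3 did not pass the filter on low counts.

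Of 11 partners of the sensors, 5 rose and 1 fell, with a median of 0.28, beside the 43.9% of all genes tested that were called. Without Glabridin replicate 2 these counts were 7 and 1, while calls over all genes also increased, from 6111 to 7332. RTCB, the ligase that joins the ends of cut XBP1 mRNA, averaged 179 ± 8.63 CPM in Glabridin libraries and 124 ± 3.24 CPM in Melanosome libraries (log2 fold change 0.53, edgeR adjusted p = 6.02e-05). MAP3K5, the kinase ASK1 that signals from IRE1 to JNK, averaged 6.58 ± 0.463 CPM in Glabridin libraries and 12.6 ± 0.998 CPM in Melanosome libraries (log2 fold change -0.93, edgeR adjusted p = 3.89e-05). Of 7 other substrates and escorts of the proteases, 3 rose and 2 fell, beside the same share of all genes. Among these, INSIG1, which retains the sterol regulators in the ER, averaged 1344 ± 112 CPM in Glabridin libraries and 205 ± 5.36 CPM in Melanosome libraries (log2 fold change 2.71, edgeR adjusted p = 6.81e-09). SREBF1, a lipid regulator cut by the same proteases, averaged 919 ± 61.9 CPM in Glabridin libraries and 453 ± 27.3 CPM in Melanosome libraries (log2 fold change 1.02, edgeR adjusted p = 1.19e-06).

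The last list holds transcripts that IRE1 is known to degrade in mouse cells. Of 6 tested, of 7 in all since PDGFRB did not pass the filter, 1 fell and none rose in Glabridin over Melanosome libraries, with a median log2 fold change of 0.16, or 0.03 without Glabridin replicate 2. For comparison, 43.9% of all genes tested were called. The one that fell was SCARA3, at 20.7 ± 2.77 CPM in Glabridin libraries and 27.7 ± 0.785 CPM in Melanosome libraries (log2 fold change -0.42, edgeR adjusted p = 0.00695).

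The same lists were then read in Melanosome over Blank libraries, where 62.5% of all genes tested were called. The XBP1 arm had 2 genes higher and 4 lower of 14, and the ATF6 arm 3 higher and 2 lower of 10, with medians of -0.10 and 0.03 against -0.06 over all genes tested. DNAJC3, a cochaperone that restrains PERK, averaged 20.6 ± 2.16 CPM in Melanosome libraries and 38.6 ± 1.94 CPM in Blank libraries (log2 fold change -0.91, edgeR adjusted p = 0.00147), and EDEM2, which trims glycans of misfolded proteins, was 0.35 higher on the log2 scale (edgeR adjusted p = 0.00151). CRELD2 and SDF2L1, both secretory pathway chaperones, were higher by 0.41 (edgeR adjusted p = 0.0011) and 0.39 (edgeR adjusted p = 0.0013). The PERK and ATF4 arm had 7 higher and 1 lower of 11, with a median of 0.61. ASNS, which makes asparagine, averaged 57.7 ± 2.15 CPM in Melanosome libraries and 5.40 ± 0.579 CPM in Blank libraries (log2 fold change 3.42, edgeR adjusted p = 2.55e-09). CHAC1, which degrades glutathione, averaged 9.49 ± 0.902 CPM in Melanosome libraries and 0.537 ± 0.0887 CPM in Blank libraries (log2 fold change 4.13, edgeR adjusted p = 1.69e-08). Both are known targets of ATF4.

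The remaining lists in Melanosome over Blank libraries differed in direction. Beside them, 62.5% of all genes tested were called, 29.5% higher and 33.0% lower. For eIF2 and its exchange factor 2 were higher and 4 lower of 9. The 2 higher were EIF2B3 (log2 fold change 0.86, edgeR adjusted p = 2.57e-04) and EIF2B2 (0.37, edgeR adjusted p = 0.00253). PPP1R15B, named here after its values were seen, was among the lower at 47.6 ± 1.34 CPM in Melanosome libraries and 72.8 ± 0.933 CPM in Blank libraries (-0.61, edgeR adjusted p = 0.00259). CREB3 was the only relative called (0.26, edgeR adjusted p = 0.00718). Partners of the sensors had 2 higher and 4 lower of 11, with DELE1, which carries the mitochondrial stress signal to EIF2AK1, at 45.5 ± 0.123 CPM in Melanosome libraries and 69.0 ± 1.26 CPM in Blank libraries (log2 fold change -0.60, edgeR adjusted p = 1.96e-05), and MAP3K5 at -0.61 (edgeR adjusted p = 3.13e-04). Protease substrates and escorts had 3 higher and 4 lower of 7, with SREBF1 at -0.84 (edgeR adjusted p = 1.7e-06) and SPRING1, an activator of MBTPS1, at 95.5 ± 2.01 CPM in Melanosome libraries and 123 ± 0.908 CPM in Blank libraries (log2 fold change -0.36, edgeR adjusted p = 2.51e-04). Of the 6 IRE1 decay transcripts 4 were higher and none lower, with a median log2 fold change of 2.81. COL6A1, a collagen chain, averaged 34.6 ± 2.67 CPM in Melanosome libraries and 0.342 ± 0.0619 CPM in Blank libraries (log2 fold change 6.65, edgeR adjusted p = 4.18e-08). SPARC, a matrix glycoprotein, averaged 38.2 ± 1.05 CPM in Melanosome libraries and 1.14 ± 0.362 CPM in Blank libraries (log2 fold change 5.05, edgeR adjusted p = 2.41e-07). Melanocyte markers rose beside these 2 genes, and their part in that rise was not tested.

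The genes with profiles most like that of XBP1 were found by Euclidean distance between mean-centred log2 CPM over the 9 libraries, among 11574 genes. SRPRA, the receptor that docks ribosomes at the ER, was nearest at a distance of 0.158, followed by SEC24D (0.244), SLC20A1 (0.262), VEGFA (0.276) and ERN1 itself (0.343). SRPRA was at 354, 257 and 358 CPM in Glabridin libraries, at 93.5, 93.5 and 94.4 CPM in Melanosome libraries, and at 102, 108 and 103 CPM in Blank libraries. It thus shared the high Glabridin level and the lower replicate 2 of XBP1. For ERN1 the nearest were XBP1 (0.343), SLC20A1 (0.357), SRPRA (0.383), GFPT1 (0.398) and LARP1B (0.402). Within the 10 genes the closest pair was EIF2AK1 and MBTPS1 (0.257), both lowest in Melanosome libraries on the CPM scale. In TPM, Melanosome libraries overlapped with both other groups for MBTPS1. Next came ATF6 and EIF2AK1 (0.289) and then ERN1 and XBP1. These distances describe 9 libraries in 3 groups and carry no test.

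**Figure D4:**
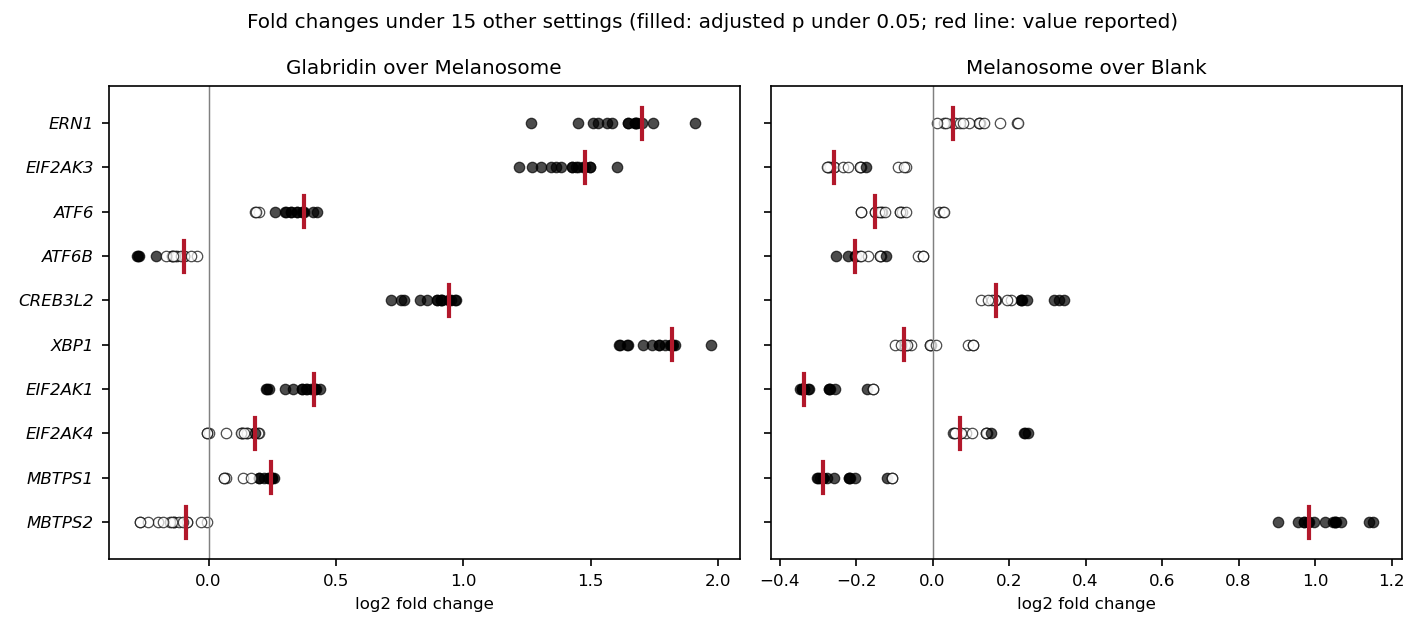
Log2 fold changes of the 10 genes under 15 other settings (points; filled where the adjusted p was under 0.05) beside the value reported (red line), in Glabridin over Melanosome libraries (left) and Melanosome over Blank libraries (right). ERN1, EIF2AK3, CREB3L2, XBP1 and EIF2AK1 on the left side and MBTPS2 on the right side are filled throughout.

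Scaling between libraries moved the smaller differences. Of all genes called in Glabridin against Melanosome libraries 54.0% were higher, but 29.0% without scaling of library sizes, which moved the median of all genes by -0.18 on the log2 scale. In Melanosome against Blank libraries 47.2% of calls were higher, and 66.0% without scaling, with a median shift of 0.17. The log2 fold changes in Glabridin over Melanosome libraries stayed between 1.27 and 1.91 for ERN1, 1.22 and 1.60 for EIF2AK3, 0.72 and 0.97 for CREB3L2, 1.61 and 1.97 for XBP1, and 0.23 and 0.44 for EIF2AK1, and these 5 genes were called under all 15 other settings.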

How the data were processed

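Raw whole-number counts for each gene were deposited for 9 HaCaT libraries, and per the file headers the same table holds TPM and FPKM values made by the authors. FPKM was not used, and a second deposited table repeated the TPM. The submitters' processing notes name hg38 as the build. No aligner, counting program, strand setting or annotation is given in the sources used here. Libraries were poly(A)-selected and strand-specific, per the labels' protocols.

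Groups came from the sample titles. Gene symbols came from the reference name table, and positions and overlaps from GENCODE release 29 on GRCh38. The test was edgeR's quasi-likelihood test (version 4.0.16, R 4.3.3) with TMM factors and filterByExpr, all 9 libraries in 1 fit, and Benjamini-Hochberg adjustment over 13912 genes. CPM used TMM-scaled library sizes. Code was tested on simulated data. Alternatives used DESeq2 1.42.0, limma 3.58.1 on log2(TPM + 1) and log2(TPM + 0.1), other scaling factors, no filter, only the groups compared, a replicate block and each library left out. The text names all 10 genes, the 2 called genes of smallest p per list and comparison, and the 5 nearest profiles of XBP1 and ERN1. Members and lists were chosen with earlier results of these data known. Even numbers made up 69.9% to 72.2% of counts from 1 to 49 but 48.7% to 51.1% of those above 500, and whether both reads of a pair were counted is unknown. If they were, errors from counting alone are larger than the counts imply. Chi-square per gene between replicates was at least 3.19, so no replicate's counts were a copy of another's in its group. As an average over genes, it cannot tell separate cultures from libraries made from the same RNA. Chi-square ran from 31.4 to 104 in Glabridin libraries, from 4.44 to 14.4 in Melanosome libraries and from 3.19 to 5.42 in Blank libraries. The spread was thus unequal between groups that shared 1 fit.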

Additional observations from a re-analysis of the deposited data

How the results depend on the processing

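Across 15 alternatives in each of 3 comparisons, 387 of 450 values of the 10 genes kept their direction and their side of the threshold, 38 lost the call, 16 gained it and 9 reversed. In Glabridin against Melanosome libraries 5 genes were called higher, in place of 8, without scaling factors and by limma at either pseudocount, and between 6 and 8 with 1 library left out. ATF6B was the 1 gene called lower, in place of 0, under those 3 settings and with upper-quartile factors. EIF2AK4 reversed by limma (-0.0052 and -0.0054). In Melanosome against Blank libraries 2 genes were called higher, in place of 1, with RLE factors, upper-quartile factors or DESeq2, and 3 without scaling factors, with only the 2 groups compared, or by limma. None was called lower by limma (0, in place of 3), 2 to 3 with 1 library left out, and 4 with only the 2 groups compared, where EIF2AK3 was added. There ATF6 reversed without scaling factors (0.017) and by limma (0.028 and 0.029), and XBP1 without scaling factors (0.093), with only the 2 groups compared (0.0078) and by limma (0.105 and 0.106). The cause was not tested. Genes called in all stayed within 1.5 times of the count reported.

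The labels do not say whether replicate numbers pair the libraries. Correlations of same-numbered deviations ran from -0.38 to 0.10, which cannot settle it because different-numbered libraries were not set beside them. With the replicate block, 5523 genes were called in Glabridin against Melanosome, 8255 in Melanosome against Blank and 9507 in Glabridin against Blank libraries, and the calls of the 10 genes changed only for EIF2AK4 in the first of these (0.18, adjusted p = 0.0687). Leaving out Glabridin replicate 2, chosen after seeing the data, gave 13, 10 and 11 genes higher in the XBP1, ATF6 and PERK and ATF4 arms, as with all libraries, and 4 in place of 3 protease substrates and escorts. Over all genes, that setting gave 7332 calls in place of 6111. The effect of depth was not tested, and 3 libraries per group, a single cell line and an unstated use of strand in counting limit all values.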
